A study of Homo sapiens with 6 samples.

Results

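AGS is an established human gastric adenocarcinoma cell line, and the measurements described here are those of AGS cells that received a control siRNA. The members are the 3 arrays labelled control siRNA, of 6 arrays in the series, and no contrast with the CTNNB1 siRNA arrays is made. The cells grew in DMEM-F12 medium with serum, were transfected before full confluence with a siRNA from Dharmacon, and gave total RNA by Trizol 48 hours later. From each sample, 500 ng of RNA was labelled and hybridised to an Affymetrix Human Gene 1.0 ST array, whose probes lie along the exons of a transcript. All 3 arrays therefore share 1 cell line and 1 siRNA reagent, and untransfected AGS cells are not analysed here. The sample titles call them biological replicates, but nothing states separate passages or days, so the spread given below is that between these samples and may be partly technical.

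Gastric glands renew from stem cells that mature into surface mucous, neck, chief, parietal and endocrine cells, each with its own secreted products. Wnt signalling acts in such stem cells: without a ligand, a destruction complex marks beta-catenin for degradation, and with a ligand beta-catenin enters the nucleus and acts with TCF/LEF factors on target genes such as AXIN2. Beta-catenin is also a structural part of the adherens junction, where it links cadherins to the actin cytoskeleton. AGS cells are known to carry an activating mutation of CTNNB1, the beta-catenin gene.

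The level of a gene is given as its log2 signal after robust multi-array averaging (RMA), a method that subtracts background, brings the arrays to a common distribution and summarises the probes of a transcript cluster. Of 33297 transcript clusters, 19460 were paired with exactly 1 gene symbol, and each of 18417 genes was represented by its cluster of highest mean on these 3 arrays. A percentile rank is the percentage of these genes with a lower mean. Probes differ in affinity, so a rank describes array signal and is not the abundance of an RNA relative to that of another gene. The array medians over all clusters were 5.38, 5.39 and 5.45, and the quartiles of the gene means were 4.35, 6.02 and 7.70.

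A background level was set on each array from 341 olfactory receptor genes, which epithelial cells are not known to use, as the 95th percentile of their signal. It was 4.87 on replicate 1, 4.95 on replicate 2 and 4.91 on replicate 3. In all, 11790 of 18417 genes (64.0%) exceeded it on all 3 arrays, which is called above background from here on, and 5594 exceeded it on none. This level is lenient: among 120 genes of lens, brain, muscle, germ cells, liver and glands, 23 (19.2%) also passed. A stricter level, the 95th percentile of those 120 genes, left 9770 genes (53.0%).

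**Figure D1:**
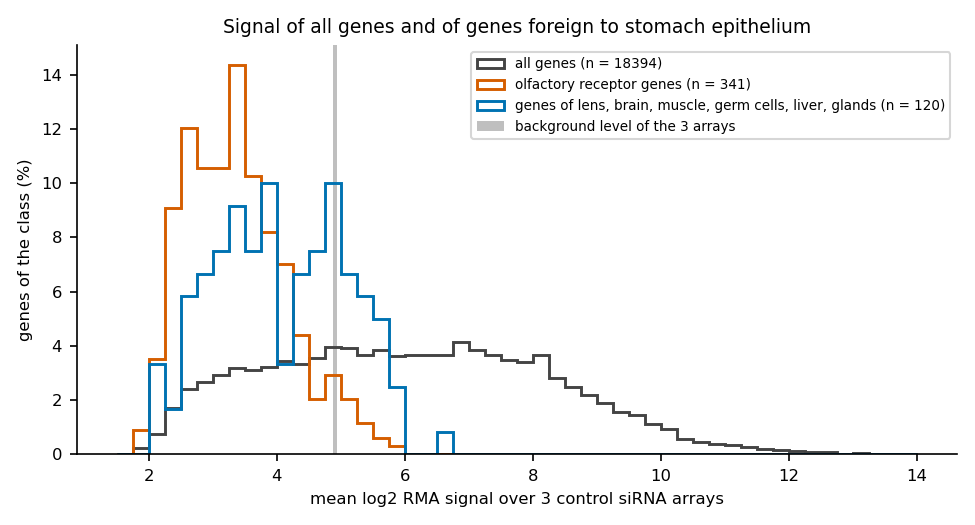
Distribution of the mean log2 RMA signal over the 3 control siRNA arrays for all genes (18394 of 18417; 23 are not plotted), for 341 olfactory receptor genes and for 120 genes of tissues foreign to stomach epithelium, as the percentage of each class per bin of signal, with the background levels of the 3 arrays as a grey band. The olfactory receptor genes, with a median of 3.32, and the foreign tissue genes, with a median of 3.96, lie mostly left of the band, while all genes spread to both sides of it.

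The epithelial label was checked against genes that define an epithelial cell. Of 35 measured epithelial genes, 26 (74.3%) were above background, against 64.0% of all genes, and their median percentile was 64.8, where the median of all genes is the midpoint of the scale. EPCAM, a surface adhesion protein of simple epithelia, read 11.36, 11.43 and 11.34 on replicates 1 to 3, a mean of 11.38 ± 0.044 (SD, n = 3, as for every mean below) at percentile 99.1. The 3 arrays thus differed little in EPCAM. Keratins of simple epithelia form the intermediate filaments of gland cells. KRT8 read 12.38, 11.99 and 11.93 and averaged 12.10 ± 0.25. KRT18, its partner in the filament, read 11.16, 10.68 and 10.61 and averaged 10.81 ± 0.30 at percentile 98.4. KRT19 read 10.51, 9.82 and 9.87. All 3 of these keratins were highest on replicate 1, with replicates 2 and 3 close together. KRT7 was lower in rank, with a mean of 5.66 ± 0.14 at percentile 44.8, and KRT20, a keratin of mature gastric and intestinal surface cells, was not above background at 4.34 ± 0.21. Of 8 keratins of squamous or basal epithelium 3 passed, all of them also above the stricter level, namely KRT13 (6.21 ± 0.14), KRT14 (5.86 ± 0.073) and KRT16 (5.78 ± 0.18), each with a higher mean than KRT7.

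The E-cadherin gene CDH1 read 6.72, 6.80 and 7.00, a mean of 6.84 ± 0.14 at percentile 62.0, and all 3 arrays were above background. P-cadherin (CDH3) was not, at 4.48 ± 0.12. All 4 measured membrane proteases and inhibitors of the list were above background and above the stricter level, against 64.0% and 53.0% of all genes. Among them were matriptase (ST14) at 10.22 ± 0.072 and its inhibitors SPINT1 at 9.50 ± 0.049 and SPINT2 at 9.61 ± 0.056. The same held for all 5 genes of epithelial membrane traffic, led by MAL2, a protein of transport to the apical membrane, at 12.71, 12.80 and 12.83. Of 8 epithelial transcription factors 7 passed (87.5%), with 7 above the stricter level, including ELF3 (9.13 ± 0.13) and GRHL2 (8.15 ± 0.13), which maintain epithelial genes. The splicing factor ESRP2, which enforces epithelial exon choice, averaged 8.15 ± 0.23.

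Genes of the mesenchymal state had a median percentile of 37.1, and 15 of 25 (60.0%) were above background, against 64.0% of all genes (10 above the stricter level). The repressors of E-cadherin ZEB1 (3.44 ± 0.09), ZEB2 (3.86 ± 0.073) and SNAI2 (3.78 ± 0.13) were not above background on any array, and neither were N-cadherin (CDH2, 4.09 ± 0.082) and fibronectin (FN1, 3.35 ± 0.098). Vimentin (VIM), the intermediate filament of mesenchymal cells, read 5.23, 5.22 and 5.01, a mean of 5.15 ± 0.12 at percentile 36.9, so that it lay just over the background level on each array. The list was not low throughout. SNAI1, another repressor of E-cadherin, averaged 6.38 ± 0.23, the membrane metalloprotease MMP14 8.78 ± 0.24 at percentile 88.3, and the fibronectin receptor subunit ITGA5 8.70 ± 0.42.

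Markers of other cell types were measured as well. Of 74, 22 (29.7%) were above background, against 64.0% of all genes, and 12 above the stricter level. Of the 74, 20 are also members of another list used here. That count leaves out the foreign tissue genes that set the stricter level, so some of those may be among the 74. The leukocyte antigen PTPRC (2.67, 2.68 and 2.70), the endothelial adhesion protein PECAM1 (3.58, 3.60 and 3.65), and the liver product ALB (2.44 ± 0.16) were far under background on all 3 arrays. The endothelial list passed for 2 of 10 genes and the squamous epithelium list for 1 of 8. None of 5 erythroid genes was above background. In the fibroblast list 5 of 10 passed (2 above the stricter level): the receptor PDGFRA (7.38 ± 0.36) and the collagen COL1A1 (6.56 ± 0.15) had the highest means, ACTA2 averaged 5.74 ± 0.18, and COL3A1 (5.16 ± 0.12) and COL1A2 (5.06 ± 0.15) lay close to background, while the proteoglycans DCN (2.56 ± 0.21) and LUM (2.38 ± 0.19) were far under it. In the muscle list 3 of 9 passed (2 above the stricter level), with the intermediate filament gene DES at 6.80 ± 0.31 and the actin gene ACTA1 at 6.46 ± 0.17. In the neuron or glia list 4 of 9 passed, none above the stricter level. The part of other cells in these signals was not tested. In such bulk samples, few cells of a type and little RNA per cell cannot be told apart. In the leukocyte list 5 of 13 passed, among them LYZ (lysozyme, also in the intestinal list) at 13.07 ± 0.088, the lysosomal protein CD68 at 8.01 ± 0.13 and the adaptor TYROBP at 6.74 ± 0.098. In the hepatocyte list, 2 of 10 passed, the apolipoprotein gene APOA2 (9.31, 9.15 and 9.39) and the fibrinogen gene FGB (7.50, 8.22 and 8.32), with FGB lowest on replicate 1.

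Products of mature stomach cells were measured next. Of 36 genes of gastric differentiation, 15 (7 above the stricter level) were above background, against 64.0% of all genes, and their median percentile was 28.9. Among surface mucous cell genes, 5 of 11 passed (3 above the stricter level). CTSE (cathepsin E), an aspartic protease of the gastric surface epithelium, read 13.02, 13.17 and 13.19, a mean of 13.13 ± 0.094 that ranked 8 of 18417. The remaining surface genes were far lower in rank. The trefoil peptide TFF1, secreted with gastric mucus, read 6.30, 6.29 and 6.23, a mean of 6.27 ± 0.038 at percentile 53.7. PSCA, a surface antigen, averaged 5.98 ± 0.08, and CLDN18, a claudin of stomach, averaged 5.29 ± 0.12, close to the background level. The gastrokines GKN1 (2.68, 2.69 and 2.37) and GKN2 (3.09, 2.58 and 2.64), secreted by normal surface cells, were below background on every array.

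Of the neck and pyloric gland genes 3 of 4 passed, where 64.0% of all genes did, but none was above the stricter level. TFF2 averaged 5.33 ± 0.11 and the gland mucin MUC6 5.13 ± 0.15, both a little over background. Among chief cell genes, 2 of 5 passed (2 above the stricter level): the pepsinogen gene PGC at 6.26 ± 0.12 and BHLHA15, a factor of secretory architecture, at 6.31 ± 0.096. Gastric lipase (LIPF, 2.46 ± 0.24) and intrinsic factor (CBLIF, 3.81 ± 0.093) did not. Among parietal cell genes 2 of 5 passed (1 above the stricter level), KCNQ1 (6.37 ± 0.12) and the variable ESRRG (5.54, 5.06 and 6.01). Of the proton pump subunits, ATP4A (4.53, 4.72 and 4.66) was above background on no array. ATP4B (4.70, 5.15 and 4.62) was not above it on every array. In the endocrine list 3 of 11 passed, and only 1 was above the stricter level. Those that passed were INSM1 (6.55 ± 0.048), a factor of endocrine differentiation, and the hormone genes GHRL (5.73 ± 0.38) and GAST (5.32 ± 0.19). GAST lay only a little over background. Somatostatin (SST, 4.52 ± 0.32) and chromogranin A (CHGA, 4.39, 3.66 and 4.57) did not pass, and CHGA was lowest on replicate 2.

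Of 46 genes of intestinal differentiation, 19 (41.3%) were above background, against 64.0% of all genes, and 11 above the stricter level, and the median percentile was 27.7. A few were at the top of the array. LYZ, the lysozyme of Paneth cells and of several other secretory cells, read 13.04, 13.16 and 12.99 and ranked 10 of 18417. CDH17, the cadherin of intestinal epithelium, read 10.15, 10.44 and 10.50, a mean of 10.36 ± 0.19 at percentile 97.5. Villin (VIL1), an actin bundler of microvilli, averaged 9.11 ± 0.23, the galectin LGALS4 8.44 ± 0.20, and REG4, a secreted lectin of endocrine and goblet cells, 8.39 ± 0.36. The carcinoembryonic genes CEACAM5 (8.13, 9.01 and 8.80) and CEACAM6 (8.56, 9.55 and 9.26) were both lowest on replicate 1, with SDs of 0.46 and 0.51 that exceed the 95th percentile of the SD over all genes (0.43).

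Enzymes and transporters of the absorptive cell differed in level. Of 22 enterocyte genes 7 passed (31.8%, against 64.0% of all genes), and 5 were above the stricter level. Of 11 colonocyte genes 7 passed (63.6%, near the 64.0% of all genes), and 4 were above the stricter level. The colonocyte genes GUCA2B (6.23 ± 0.065), CA2 (5.74 ± 0.11), AQP8 (5.20 ± 0.20) and GUCA2A (5.19 ± 0.20) were among those that passed. So were the enterocyte genes APOA1 (5.75 ± 0.088) and CREB3L3 (5.66 ± 0.34). The alkaline phosphatase ALPI averaged 6.25 ± 0.086 at percentile 53.3 and was above background on every array. The peptidase ANPEP (4.74 ± 0.13) and the glucose transporter SLC5A1 (4.57 ± 0.19) exceeded it on none. The disaccharidase SI (2.39 ± 0.17), the fatty acid binding protein FABP2 (2.45 ± 0.077) and the peptidase DPP4 (2.59 ± 0.085) were not above background on any array. In the colonocyte list the same held for the chloride exchanger SLC26A3 (2.94 ± 0.15). Of 13 goblet or Paneth cell genes, 5 passed: LYZ, REG4, and close to background SPDEF (5.34 ± 0.081), ATOH1 (5.15 ± 0.34) and the goblet mucin MUC2 (5.13 ± 0.073). The trefoil peptide TFF3 (4.36 ± 0.11) and the Paneth defensins DEFA5 (3.83 ± 0.14) and DEFA6 (3.81 ± 0.12) did not.

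**Figure D2:**
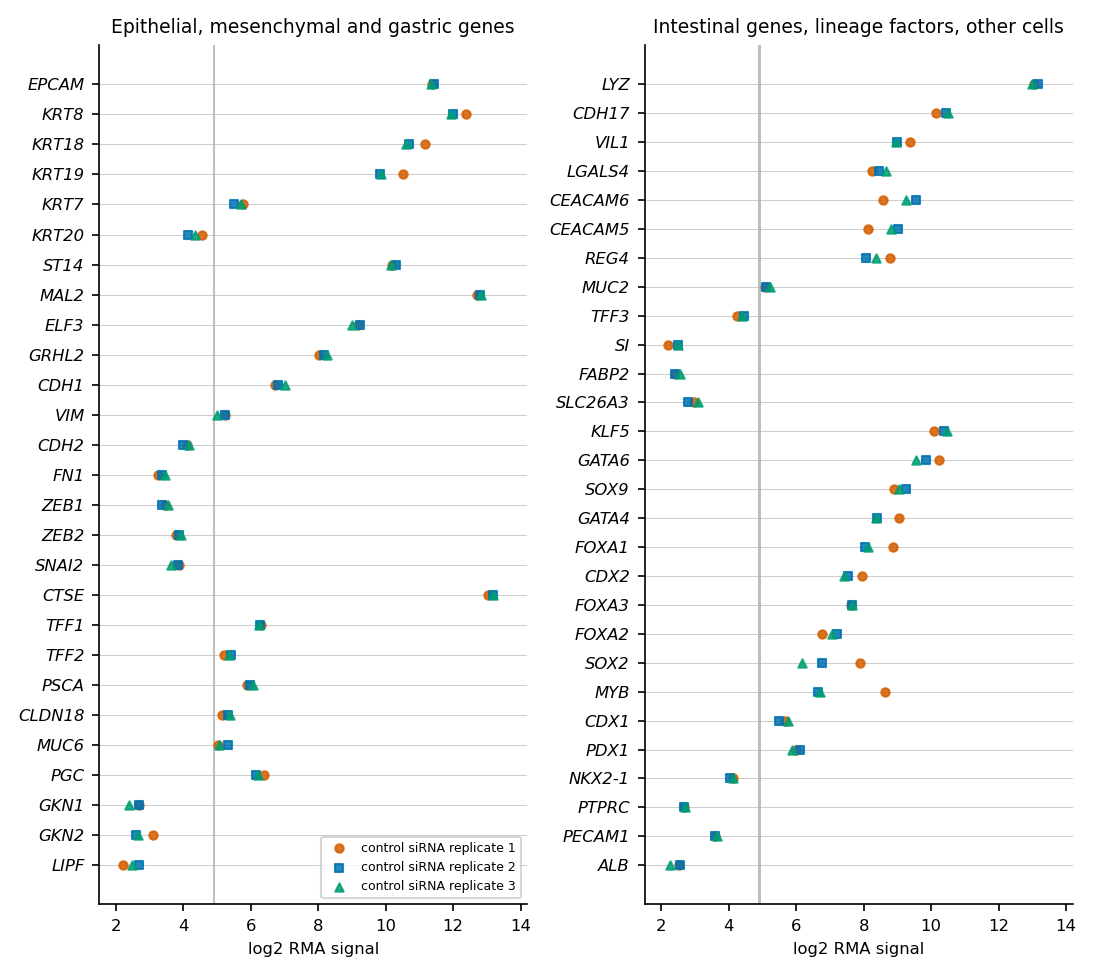
Log2 RMA signal of epithelial, mesenchymal and gastric genes (left) and of intestinal genes, lineage transcription factors and markers of other cells (right), with 1 symbol per control siRNA array and the background levels of the 3 arrays as a grey line. EPCAM, KRT8, MAL2, CTSE and LYZ lie above 11 on every array and GKN1, GKN2, LIPF, SI and FABP2 below 4, while SOX2 and MYB are the 2 rows whose symbols are farthest apart.

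Transcription factors that set gut identity were mostly above background: 26 of 30 factors of foregut and endoderm passed (86.7%, against 64.0% of all genes). Their median percentile was 64.4, and 23 were above the stricter level. KLF5, a factor of proliferating gut epithelium, read 10.09, 10.39 and 10.46, a mean of 10.31 ± 0.19 at percentile 97.4. GATA6, an endoderm factor amplified in some gastric cancers, read 10.24, 9.84 and 9.55 and averaged 9.88 ± 0.35 at percentile 95.9, and its relative GATA4 read 9.04, 8.40 and 8.35. Both GATA genes were highest on replicate 1. SOX9, a factor of gut progenitors, averaged 9.06 ± 0.18. Of the FOXA pioneer factors of endoderm, FOXA1 read 8.87, 8.04 and 8.12, while FOXA2 averaged 7.01 ± 0.23 and FOXA3 7.64 ± 0.023. Replicate 1 was the high array for FOXA1. The lung and thyroid factor NKX2-1 (4.09 ± 0.061) and the liver and thyroid factor HHEX (3.46 ± 0.14) were not above background.

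SOX2 and CDX2 mark gastric and intestinal identity respectively, and both were above background on all 3 arrays. CDX2 read 7.94, 7.55 and 7.40, a mean of 7.63 ± 0.28 at percentile 74.1. SOX2 read 7.87, 6.77 and 6.18, a mean of 6.94 ± 0.86 at percentile 63.8, with replicate 1 highest and replicate 3 lowest. Without replicate 1 the percentile of SOX2 was 56.8, and without replicate 3 it was 69.5. CDX1, the second intestinal factor of the family, averaged 5.65 ± 0.14 at percentile 44.6, and HES1, a repressor driven by Notch, averaged 9.20 ± 0.17. Of 27 factors of other lineages, 17 (63.0%) were above background, near the 64.0% of all genes, but only 4 above the stricter level. Their median percentile was 37.0.

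The HOX genes, which record position along the body axis, were measured for 27 members, of which 14 (51.9%) were above background, against 64.0% of all genes, and 6 above the stricter level, with a median percentile of 36.9. HOXB9 read 7.99, 9.07 and 8.92, a mean of 8.66 ± 0.59 at percentile 87.1, and was lowest on replicate 1. HOXB6 (6.98 ± 0.29) and HOXB5 (6.69 ± 0.27) followed in the same cluster, in which 6 of 10 passed. In the HOXC and HOXD clusters 3 of 7 and 5 of 9 passed, but only 1 in each cluster was above the stricter level, and no mean was over 6. HOXC5 was the most variable of these, at 6.31, 5.61 and 5.06. Of 11 listed HOXA genes only 1 was measured, and it was not above background, so the counts say little of that cluster.

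The Wnt pathway was represented by 120 measured genes. Of these 91 were above background (73 above the stricter level), against 64.0% of all genes, and the median percentile was 58.6. Among 25 ligands, release factors and R-spondins 14 passed (56.0%), and 7 were above the stricter level. WLS, which carries Wnt ligands to the cell surface, read 9.05, 9.24 and 9.11. The ligand genes themselves were lower: the one of highest rank, WNT3, read 6.07, 6.34 and 6.62, and WNT5A, a ligand of noncanonical signalling, was not above background at 2.87 ± 0.094. WLS aside, no member of this group had a mean above that of WNT3.

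Receptors were above background for 17 of 19 genes (89.5%, against 64.0% of all genes), and 14 were above the stricter level. LGR5, an R-spondin receptor and marker of gut stem cells, read 11.52, 11.55 and 11.64, a mean of 11.57 ± 0.061 at percentile 99.3. The 3 arrays were close together in LGR5. LGR4, a broader R-spondin receptor, averaged 9.94 ± 0.16, and the coreceptor LRP6 read 8.69, 9.09 and 9.07. FZD5, a Frizzled receptor, read 8.01, 8.58 and 8.46, lowest on replicate 1. The orphan receptor ROR1 averaged 8.71 ± 0.18, whereas ROR2 (4.60 ± 0.12) and LGR6 (4.76 ± 0.12) were not above background.

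All 5 cytoplasmic transducers and all 13 measured genes of the destruction complex were above background, against 64.0% of all genes. Above the stricter level were 5 and 11. In the destruction complex the kinases GSK3A (10.60, 10.17 and 9.89) and GSK3B (9.04, 9.26 and 9.31) phosphorylate beta-catenin, and GSK3A was highest on replicate 1. AXIN2, a scaffold of the complex and itself a Wnt target, read 9.36, 9.28 and 9.17, a mean of 9.27 ± 0.096 at percentile 92.3. The scaffold APC averaged 5.54 ± 0.13 at percentile 42.8. The most variable member was AMER1, which binds APC, at 6.89, 6.20 and 6.05 with replicate 1 highest.

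Of 16 nuclear effectors, 13 were above background (81.25%, against 64.0% of all genes), and 13 were above the stricter level. CTNNB1 read 11.92, 11.76 and 11.75, a mean of 11.81 ± 0.091 at percentile 99.5, and was among the genes of highest signal on every array. TCF7L2, the main TCF factor of gut epithelium, read 8.86, 9.19 and 9.30. Of its relatives, LEF1 (3.35, 3.78 and 3.49) was below background on every array and TCF7L1 (4.85, 5.32 and 5.27) passed on 2 arrays. Corepressors of the Groucho family and a coactivator were also present in signal: TLE3 averaged 8.86 ± 0.28, TLE1 8.24 ± 0.19 and CREBBP 9.36 ± 0.22.

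Inhibitors of the pathway were above background for 12 of 19 genes (63.2%), near the 64.0% of all genes, and 8 were above the stricter level. Their median percentile was 43.9. DKK1, a secreted antagonist of LRP6 and a target of beta-catenin, read 11.74, 11.29 and 11.16, a mean of 11.40 ± 0.30 at percentile 99.2, highest on replicate 1. The membrane ligases that remove Frizzled receptors, RNF43 (8.91, 9.34 and 9.21) and ZNRF3 (8.27, 8.22 and 8.17), and the intracellular feedback inhibitor NKD1 (7.42, 8.30 and 7.92), are Wnt targets as well. NKD1 was lowest on replicate 1, and ZNRF3 hardly varied. The secreted inhibitors SFRP5 (5.61 ± 0.081) and DKK3 (5.52 ± 0.22) were above background with means near the middle of the group. By contrast SFRP1 (4.71 ± 0.16), SFRP2 (3.82 ± 0.086), SFRP4 (2.64 ± 0.14), FRZB (2.97 ± 0.39), WIF1 (3.39 ± 0.32), DKK2 (3.22 ± 0.096) and DKK4 (4.27 ± 0.064) were not above background on any array.

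Of 23 other target genes, 17 were above background (73.9%, against 64.0% of all genes), and 15 were above the stricter level. The cell cycle gene CCND1 read 10.18, 9.79 and 9.70 and averaged 9.89 ± 0.26, and MYC, a transcription factor of cell growth, read 9.79, 9.88 and 9.61 and averaged 9.76 ± 0.14 at percentile 95.2. SP5, a transcription factor induced by Wnt signals, read 8.08, 8.17 and 7.92, and the adhesion receptor CD44 averaged 8.24 ± 0.20. VEGFA (7.99, 9.06 and 9.32), an angiogenic factor, and BMP4 (7.69, 8.86 and 8.38), a BMP ligand, were both lowest on replicate 1 and were the most variable genes of the list. OLFM4 (4.50 ± 0.13), SMOC2 (3.84 ± 0.19) and PROM1 (2.62 ± 0.065), known from stem cells, were not above background, and ASCL2, a factor of intestinal stem cells, averaged 4.99 ± 0.23 and exceeded it on 2 arrays.

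**Figure D3:**
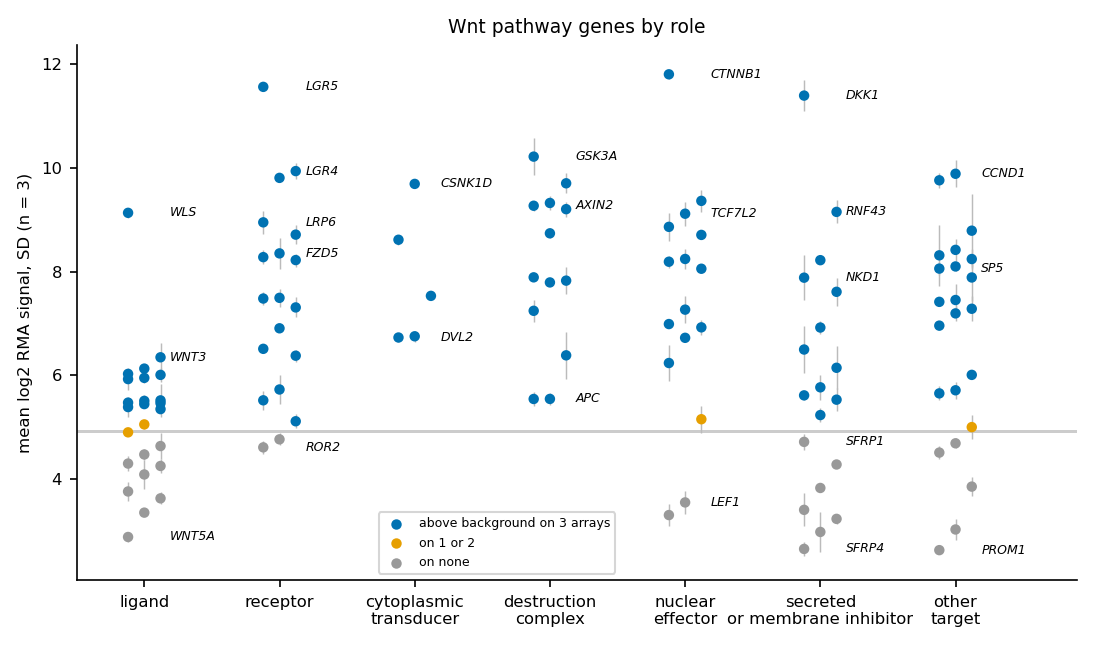
Mean log2 RMA signal over the 3 control siRNA arrays of 120 Wnt pathway genes, with 1 point per gene grouped by role on the horizontal axis, vertical bars of 1 SD (n = 3), colour for the number of arrays above background and a grey band for the background levels. All 13 destruction complex genes lie above the band, and the inhibitors spread from DKK1 at 11.40 down to SFRP4 at 2.64.

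The promoter stretches of 3 of these genes are shown beside their signal. They come from RefSeq (GRCh38.p14), are read 5′ to 3′ on the strand of the gene, and end just past the listed start for DKK1 and CTNNB1 and just before it for SP5. DKK1 and SP5 are shown as pathway genes whose windows hold the TCF type letters CTTTGAA on either strand, and CTNNB1 because the pathway turns on it. Capitals mark CTTTGAA or its complement TTCAAAG and TATAAA in DKK1 and SP5, and the Sp1 type letters GGGCGG or CCGCCC in CTNNB1.
DKK1, chr10:52314161-52314300, plus strand: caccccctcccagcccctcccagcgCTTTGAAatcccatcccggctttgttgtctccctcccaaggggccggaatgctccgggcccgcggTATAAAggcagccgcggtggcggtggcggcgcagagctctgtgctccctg
SP5, chr2:170715177-170715316, plus strand: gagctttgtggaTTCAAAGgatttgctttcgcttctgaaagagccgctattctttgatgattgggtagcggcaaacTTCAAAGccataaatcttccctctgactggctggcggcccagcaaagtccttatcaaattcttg
CTNNB1, chr3:41199345-41199524, plus strand: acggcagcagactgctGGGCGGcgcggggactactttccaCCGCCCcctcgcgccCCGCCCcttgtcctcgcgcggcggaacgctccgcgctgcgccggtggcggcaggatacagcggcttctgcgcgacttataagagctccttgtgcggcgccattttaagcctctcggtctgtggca
The printed DKK1 stretch holds 1 TCF type match and 1 TATA box match, the SP5 stretch 2 TCF type matches and the CTNNB1 stretch 3 Sp1 type matches. CTTTGAA occurred in 3.59% of 13770 promoters of protein coding genes. A match of letters is a description and not a site of binding. AXIN2 and LGR5 have no entry in the promoter table used.

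Cell adhesion genes numbered 121, of which 70 (57.9%) were above background, against 64.0% of all genes, with a median percentile of 42.5. Cadherins, not all of them of the classical type, passed for 6 of 20 (4 above the stricter level), CDH17 and CDH1 foremost. Catenins and their partners passed for 5 of 8. Plakoglobin (JUP), the close relative of beta-catenin in junctions and desmosomes, read 10.77, 10.43 and 10.33, and alpha-catenin (CTNNA1), which binds actin, read 9.66, 9.56 and 9.42. Vinculin (VCL), recruited to junctions under tension, read 9.78, 8.68 and 8.80, so that replicate 1 was about 1 log2 unit above the other arrays. The neural alpha-catenin CTNNA2 (3.25, 4.15 and 2.90) was below background on all 3 arrays despite an SD of 0.65.

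Desmosomes, the spot junctions that anchor keratins, had 9 of 15 genes above background (60.0%, near the 64.0% of all genes), and 9 above the stricter level. PKP2 read 10.59, 10.72 and 10.71, desmoplakin (DSP) averaged 10.19 ± 0.072 and desmoglein 2 (DSG2) read 9.31, 9.38 and 9.29, and the arrays differed little. DSG1 (3.10 ± 0.16), DSG3 (3.88 ± 0.24), DSC1 (3.73 ± 0.031) and DSC3 (2.69 ± 0.26), the forms of stratified epithelium, were not above background. Of the claudins, which seal tight junctions, 14 of 21 passed (66.7%, also near the share of all genes), and 11 were above the stricter level. CLDN7 read 11.37, 11.37 and 11.41 and CLDN1 10.29, 10.67 and 10.78. The tight junction scaffold TJP1 averaged 11.01 ± 0.16, and the virus receptor CXADR, a junction protein, 11.05 ± 0.31.

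Among receptors of the matrix, 8 of 17 integrin alpha (47.1%) and 5 of 8 integrin beta genes (62.5%) passed, against 64.0% of all genes. ITGA2, the collagen receptor subunit, read 11.04, 11.27 and 11.23, ITGA6, a laminin receptor subunit, 10.86, 11.32 and 10.97, and its partner ITGB4, which builds hemidesmosomes, 9.06, 9.57 and 9.44. ITGA3, another laminin receptor subunit, read 8.46, 9.43 and 9.12, lowest on replicate 1. The integrin subunits of blood cells and platelets, ITGAL (3.84 ± 0.092), ITGAM (4.28 ± 0.17) and ITGA2B (4.70 ± 0.12), were not above background. Laminin chains LAMB1 (9.92 ± 0.054) and LAMC1 (10.11 ± 0.18) were both over percentile 95. All 6 nectins and related proteins passed, and NECTIN4 was the variable one, at 5.03, 5.95 and 5.86.

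Mucins form mucus when secreted and a glycocalyx when bound to the membrane. Of 45 genes of mucins, trefoil factors and their synthesis, 30 (66.7%) were above background, near the 64.0% of all genes, with a median percentile of 41.4. Membrane mucins spanned a wide range, and 5 of 12 were above the stricter level. PODXL (9.21 ± 0.11), MUC20 (6.25 ± 0.27), MUC21 (5.90 ± 0.21) and MUC12 (5.45 ± 0.36) lay between the highest members and those under background. MUC1 read 10.01, 10.45 and 10.41, a mean of 10.29 ± 0.24 at percentile 97.3, and MUC13, a mucin of stomach and colon, read 9.58, 9.88 and 9.69, a mean of 9.72 ± 0.15. MUC4 (4.70 ± 0.18), MUC16 (4.61 ± 0.15) and MUC17 (4.75 ± 0.10) were not above background on any array. Secreted mucins were low: MUC6, MUC2 and MUC5B (5.10 ± 0.11) were just over background, none of the 5 was above the stricter level, and MUC7 (3.62 ± 0.35) was below background. MUC5AC is not analysed here.

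Genes listed as glycosyltransferases of mucins were above background for 17 of 20. C1GALT1, which makes the core structure of O-glycans, read 10.13, 10.46 and 10.24. GCNT3, which branches O-glycans in mucous tissues, read 8.88, 10.26 and 9.77, an SD of 0.70 with replicate 1 lowest. GALNT1 (8.59 ± 0.15) and GALNT2 (8.84 ± 0.12), which start O-glycosylation, varied less. So did FUT8 (9.27 ± 0.28), a fucosyltransferase of the list whose action on mucins was not tested. Genes of mucus assembly in goblet cells were low, with AGR2 at 4.91, 5.56 and 5.11 and CLCA1 at 2.77 ± 0.29.

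Receptor tyrosine kinases were above background for 32 of 53 genes, a share of 60.4% against 64.0% of all genes, with a median percentile of 48.1. In the ERBB family EGFR read 8.09, 7.92 and 7.98, with the 3 arrays close together at percentile 79.1. ERBB2 read 7.88, 8.41 and 8.24, a mean of 8.17 ± 0.27 at percentile 81.7, and ERBB3 8.07, 8.37 and 8.41. ERBB4 was not above background at 4.17 ± 0.19. MET, the receptor of hepatocyte growth factor, read 9.37, 9.23 and 9.15, a mean of 9.25 ± 0.11 at percentile 92.1. FGFR2 averaged 7.67 ± 0.14, FGFR4 7.13 ± 0.084 and FGFR3 6.75 ± 0.13, and FGFR1 read 4.11, 3.98 and 4.25, below background on every array. Of the ephrin receptors, which govern cell position and repulsion, EPHA4 (8.90 ± 0.39), EPHA2 (8.85 ± 0.24) and EPHB4 (8.44 ± 0.03) were highest in rank. PDGFRA, usually a receptor of mesenchymal cells, read 7.06, 7.31 and 7.76 and was above background on every array, while KIT (3.22 ± 0.27), KDR (3.83 ± 0.071) and TEK (3.41 ± 0.10) were not.

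Among 39 nuclear receptors 23 (59.0%) were above background, against 64.0% of all genes, with a median percentile of 46.6, and 6 had an SD above the 95th percentile of all genes. NR1D1 (7.31, 9.30 and 8.90) and NR1D2 (7.07, 8.29 and 8.01), repressors of the circadian clock, were both lowest on replicate 1. THRB, a thyroid hormone receptor, read 7.23, 6.41 and 6.42, and the vitamin D receptor VDR 6.76, 5.85 and 6.14, and both were highest on replicate 1. PPARG (7.46, 7.47 and 7.51), a fatty acid sensor, was nearly the same on the 3 arrays. The sex steroid receptors ESR1 (4.29 ± 0.22) and PGR (3.88 ± 0.18) were not above background.

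Other receptors passed for 54 of 84 genes (40 above the stricter level), a share of 64.3% that is near the 64.0% of all genes, with a median percentile of 45.6. Receptors of the TGF-beta family were above background for 11 of 13, among them BMPR2 (11.16, 11.84 and 11.69) and TGFBR2 (9.16, 9.91 and 9.80), both lowest on replicate 1. All 4 Notch receptors passed, NOTCH2 at 9.02, 8.99 and 8.99, and so did all 10 death and TNF receptors, TNFRSF21 at 9.92 ± 0.24 foremost in rank. Receptors of the gp130 group of cytokines were represented by OSMR (9.26 ± 0.28), LIFR (8.67 ± 0.13) and the shared subunit IL6ST (8.25, 8.19 and 8.26). Chemokine receptors passed for 3 of 15, none above the stricter level, and CXCR4 read 3.07, 3.55 and 4.26. The gastrin receptor CCKBR was close to background at 4.87, 5.02 and 5.34 and the histamine receptor HRH2 below it at 4.36 ± 0.19.

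Genes of the cell cycle were above background for 45 of 47 (95.7%, against 64.0% of all genes), with a median percentile of 89.3. The mitotic kinase PLK1 read 10.87, 10.73 and 10.74, topoisomerase TOP2A 10.47, 10.88 and 10.70 and the proliferation antigen MKI67 10.38, 10.58 and 10.54. Genes of DNA replication passed for 15 of 15, with thymidylate synthase (TYMS) at 10.05 ± 0.21 and the sliding clamp PCNA at 9.20 ± 0.16. Over these 15 genes the mean deviation from the gene mean was 0.30 on replicate 1, -0.23 on replicate 2 and -0.074 on replicate 3. The most variable cell cycle genes were GINS2 (8.79, 7.33 and 7.86), a part of the replicative helicase, CCNE2 (8.53, 7.48 and 7.58), a cyclin of S phase entry, FEN1 (7.37, 6.43 and 6.86), a flap nuclease, and CDK6 (10.02, 9.23 and 9.28), all highest on replicate 1.

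Regulators of the G1 phase passed for 16 of 18 (88.9%, against 64.0% of all genes). CDK4 averaged 10.57 ± 0.18 and MDM2, a ubiquitin ligase, read 10.04, 10.00 and 9.88. CDKN1A, an inhibitor of cyclin-dependent kinases, read 7.57, 8.01 and 7.72, a mean of 7.77 ± 0.22 at percentile 76.0. The inhibitor CDKN2A read 4.73, 4.49 and 5.09, a mean of 4.77 ± 0.30 at percentile 30.9, and exceeded background on replicate 3 only. CCND2 (3.76 ± 0.14) was not above background.

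The 25 genes of highest mean signal included GAPDH (13.50, 13.45 and 13.45), a glycolytic enzyme, ACTB (13.55, 13.29 and 13.14), beta-actin, EEF1A1 (13.15, 13.29 and 13.13), the elongation factor of translation, and the glucose transporter SLC2A1 (12.75, 12.75 and 12.50). Among them were also CTSE, LYZ, MAL2, the calcium-binding protein S100A10 (13.15 ± 0.034) and the secreted protease inhibitor CST1 (12.79, 12.65 and 12.67). PLCG2, a phospholipase best known from blood cells, ranked 15 with 12.90, 12.96 and 12.64, though a second cluster of the gene averaged 5.72. Of the 25 genes, HSPA8, a constitutive heat shock protein, was the most variable at 13.49, 13.05 and 12.64, with replicate 1 highest and replicate 3 lowest.

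Several of these ranks depend on which cluster stands for the gene. Of the 25, 7 have more than 1 cluster, and for 5 of them the dimmest lies at least 2 log2 units lower. FAF2, ranked 1 at 13.71 ± 0.058, has a second cluster at 9.58, and its bright cluster is the 1 of the 25 that the platform does not pair with a RefSeq transcript. PTMA, ranked 2, has 6 clusters, the dimmest at 5.26. RPL13AP5 at 13.34 ± 0.031 is a processed copy of a ribosomal protein gene, so its signal and that of its parent gene cannot be told apart here. The same limit holds for other ribosomal protein genes and for EEF1A1, which have many near-identical copies. Over all genes, 769 have more than 1 cluster, and in 156 of them the clusters differ by 2 or more.

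Ribosomal protein genes were among the highest of the array: 62 of 64 (96.9%) were above background, against 64.0% of all genes. Their median percentile was 97.7. Genes of the translation machinery are known for a pyrimidine run at the start of the transcript. The letters CTTTC or CTTTT, read on the gene's strand within 10 bases of the listed start, were found in 54.7% of 53 ribosomal protein promoters (29 genes; 95% Wilson interval 41.5% to 67.3%) and in 5.19% of the promoters of all protein coding genes. The promoter table lists RPL18 (13.12 ± 0.11), EEF1A1, RPS3 (12.39 ± 0.11) and RPL41 (12.36 ± 0.12), shown here as genes of high signal that hold these letters in capitals. Each stretch spans the start and is read 5′ to 3′ on the gene's strand (RefSeq, GRCh38.p14).
RPL18, chr19:48619149-48619198, minus strand: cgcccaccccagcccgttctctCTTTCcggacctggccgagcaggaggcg
RPS3, chr11:75399498-75399547, plus strand: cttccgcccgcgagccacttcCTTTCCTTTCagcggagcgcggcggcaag
RPL41, chr12:56116613-56116662, plus strand: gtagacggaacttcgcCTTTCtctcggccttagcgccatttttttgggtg
EEF1A1, chr6:73521003-73521052, minus strand: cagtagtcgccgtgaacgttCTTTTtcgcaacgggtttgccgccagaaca
RPS3 holds the letters 2 times in a row and the other stretches 1 time each. GKN1, of the surface mucous genes below background, is shown as 1 gene of low signal. Its stretch holds neither TATAAA nor GGGCGG.
GKN1, chr2:68974476-68974655, plus strand: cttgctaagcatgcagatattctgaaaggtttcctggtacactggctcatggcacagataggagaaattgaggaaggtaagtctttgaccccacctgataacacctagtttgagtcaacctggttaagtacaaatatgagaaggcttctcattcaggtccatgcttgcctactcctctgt

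Promoter letters were then set against signal over all protein coding genes, in deciles of all genes by mean. The windows ran from 250 bases before to 50 after the first listed start and were found for 13770 of 16902 protein coding genes (81.5%). The Sp1 type letters GGGCGG, on either strand, were in 30.3% of promoters of the lowest decile (1246 promoters) and 74.4% of the highest (1551 promoters), against 60.7% of all. The ETS type letters CCGGAAG were in 5.22% and 20.6% (14.8% of all). The order was the reverse for the TATA box letters TATAAA, at 20.5% and 6.71% (8.99% of all), and for the TCF type letters CTTTGAA, at 7.22% and 2.13% (3.59% of all). CCAAT varied little, at 37.9% and 40.8%. No motif searched contains another.

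The median GC content of a window was 47.7% in the lowest decile and 65.3% in the highest, and the median ratio of observed to expected CpG was 0.34 and 0.87. The part of base composition in the motif shares was not tested. For the olfactory receptor genes, which have 275 matched promoters, TATAAA was in 31.3%, GGGCGG in 1.09%, and the CpG ratio was 0.12. In deciles 3, 4 and 5 fewer than 80% of genes have a promoter entry, so no share is given for them. Promoters with several listed starts (3738 genes) were read at the first only.

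**Figure D4:**
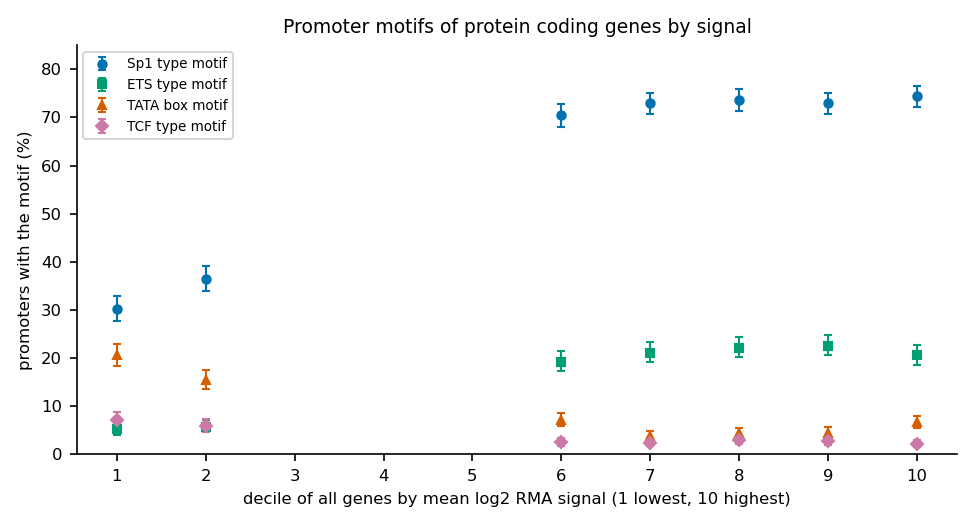
Percentage of protein coding gene promoters that hold each of 4 motifs, with 95% Wilson intervals, by decile of all genes by mean log2 RMA signal on the 3 control siRNA arrays; deciles 3, 4 and 5 are left out for incomplete promoter entries. The Sp1 type motif is at 30.3% in decile 1 and 74.4% in decile 10, and the TATA box motif at 20.5% and 6.71%.

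The spread between the 3 arrays was small for most genes. The SD of a gene had a median of 0.16 and a 95th percentile of 0.43. Across genes, which are not independent replicates, Pearson's r was 0.987 for replicates 1 and 2, 0.988 for replicates 1 and 3 and 0.992 for replicates 2 and 3. Genes 1 or more log2 units apart numbered 269, 224 and 88 for the same pairs. At most 25 clusters had identical values on 2 arrays, so no array was a copy of another.

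Replicate 1 was the array that most often stood apart. Counting genes that differed by 1 or more from the mean of the other arrays, where those lay within 0.5 of each other, replicate 1 was higher for 58 and lower for 97 genes. The same counts were 5 and 11 for replicate 2, and 7 and 20 for replicate 3. Of 921 genes with an SD over the 95th percentile, replicate 1 was farthest from the median in 582. Among genes of the lists with such an SD this held for all 7 lineage factors, among them SOX2, MYB, FOXA1 and ID2 (10.17, 9.38 and 9.30), all 6 Wnt genes, 6 of 7 cell adhesion genes, all 4 proliferation genes, 4 of 6 nuclear receptors and both intestinal and both HOX genes. It held for none of the 3 gastric genes, 6 silent tissue genes, 2 other receptors and 1 receptor tyrosine kinase. No epithelial identity gene and no mesenchymal gene had such an SD. Array and condition of culture cannot be told apart with 1 array per sample.

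The 15 genes of largest SD included genes known from the response to amino acid shortage and oxidative stress, a grouping made after their values were seen. CHAC1, which degrades glutathione, read 6.76, 9.11 and 9.81, the cystine transporter SLC7A11 8.04, 10.15 and 10.89 and CTH, which makes cysteine, 5.28, 7.72 and 7.57. All 3 were lower on replicate 1 than on either of the other arrays by more than 2 log2 units. EGR1 (7.56, 10.00 and 10.34), an immediate early factor, TXNIP (8.53, 10.84 and 10.46), a glucose-responsive regulator of thioredoxin, and KLHL24 (5.02, 7.36 and 7.20) were low on replicate 1 too. The opposite order was seen for MYB (8.63, 6.64 and 6.72), a factor of progenitor cells, SERPINB8 (7.59, 5.32 and 5.62), a protease inhibitor, and the histone gene H2AC14 (5.32, 2.43 and 2.88), all highest on replicate 1.

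**Figure D5:**
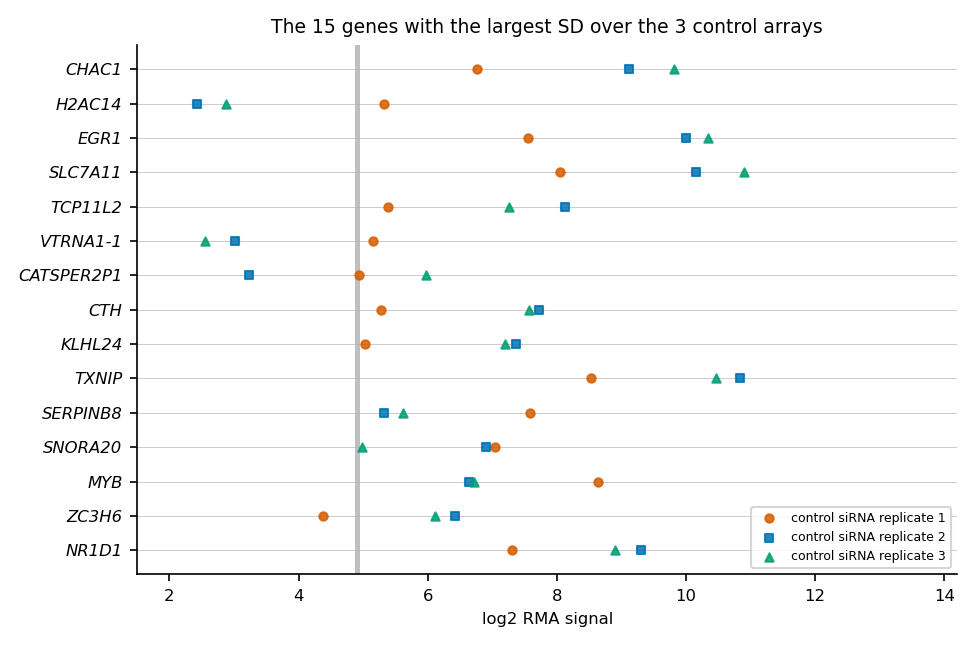
Log2 RMA signal on each control siRNA array of the 15 genes with the largest SD among genes above background on at least 1 array, from largest at the top, with the background levels as a grey band. Replicate 1 is the separate symbol in most rows, such as EGR1 at 7.56 against 10.00 and 10.34, while SNORA20 is separate on replicate 3.

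Small nucleolar RNA genes, whose products guide modification of ribosomal RNA, varied in another way. Of 98 above background on at least 1 array, 65 were lowest on replicate 3, 24 on replicate 2 and 9 on replicate 1. The median difference from the mean of the other arrays was 0.38 on replicate 1, 0.011 on replicate 2 and -0.33 on replicate 3. The same figures for 12104 protein coding genes were 0.0072, -0.014 and -0.0012, so the shift was not shared by them. SNORA20, the snoRNA gene among the 15 of largest SD, read 7.03, 6.91 and 4.98. These RNAs are short, and the part of RNA recovery or labelling in their shift was not tested.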

How the data were processed

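The authors deposited 1 log2 value per transcript cluster and array, made with RMA. The submitters' processing notes name Affymetrix Expression Console 1.1 as the software. That the scale is log2 was read from the values themselves. The genome build and annotation are not stated. RMA forces the arrays to 1 distribution and compresses dim signals, and the number of arrays limits the precision.

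The 3 control siRNA arrays were used as deposited. Symbols came from the platform's annotation and were updated through Entrez identifiers for 19429 clusters, while 31 kept the old symbol. A further 1754 clusters with several symbols and 12083 with none were left out. Of 996 symbols in 16 gene lists, 893 were measured. Means, SDs, ranks and shares were computed in Python 3.11.15 with pandas 2.3.3, numpy 2.4.6 and scipy 1.17.1, without a test, since 1 group is described. The procedure was tested on simulated data in which expressed and silent genes were set well apart. That test therefore does not bear on genes near background. Promoter windows are from RefSeq (GRCh38.p14); over all genes 77.3% matched, under the minimum of 80%, so shares are given for protein coding genes, a choice made after seeing the data.

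The members and lists were chosen with earlier results of these data known. Named genes are up to 6 per role by rank among those above background, well-known members that are not, members with an SD over the 95th percentile, the 25 of highest mean, the 15 of largest SD and 22 fixed genes, of which 19 were measured. APC, ASCL2, CCKBR, DKK3, FOXA2, FOXA3, GATA4, PDX1, RPL41, RPS3, SFRP5 and SP5 were named outside that rule, after their values were seen. Alternatives covered the background level, the cluster per gene, the ranking set, normalization and leaving out each array.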

Additional observations from a re-analysis of the deposited data

How the results depend on the processing

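The number of arrays, 3 of 1 group, limits every value, and signals near background cannot be ordered. No paired analysis was possible because the values come from 1 group and no test was made.

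Counts above background depended most on the level chosen. With the 99th percentile of olfactory receptor genes, 7 gastric, 11 intestinal, 8 HOX and 13 other cell type genes were counted, against 15, 19, 14 and 22. With the 95th percentile of the foreign tissue genes, the counts were 7 gastric, 11 intestinal, 33 lineage factor, 6 HOX and 12 other cell type genes. With the median of all genes, they were 7 mesenchymal, 6 gastric, 9 intestinal, 25 lineage factor (52 in the main count), 3 HOX, 18 mucin, 35 other receptor and 10 other cell type genes. The other counts stayed within 1.5 times under these levels. All 15 list counts did so when the arrays were quantile normalised again, when clusters with several symbols were used, when the dimmest cluster stood for a gene, and without each array in turn.

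Ranked among all transcript clusters, the median percentile was 70.8 for epithelial, 46.5 mesenchymal, 38.6 gastric, 37.4 intestinal, 52.7 lineage factor, 46.4 HOX, 66.0 Wnt, 51.7 adhesion, 50.8 mucin, 56.9 receptor tyrosine kinase, 55.6 nuclear receptor, 54.7 other receptor, 94.5 reference and 37.9 other cell type genes. With the median over arrays it was 38.0 mesenchymal, 44.8 lineage factor, 37.7 HOX and 88.7 proliferation. With the dimmest cluster it was 37.9 mesenchymal, 44.4 lineage factor, 37.7 HOX, 44.7 receptor tyrosine kinase, 46.4 other receptor, 89.9 proliferation and 28.7 other cell type genes. Without 1 array it ranged from 37.3 to 38.3 for mesenchymal, 36.1 to 38.0 for HOX and 27.8 to 29.3 for other cell type genes. The cause of these shifts was not tested.

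In promoters of all genes above background, in place of the highest decile, CCAAT was in 36.5% (40.8% in the decile), GGGCGG in 70.5% (74.4%), the NRF1 type motif in 2.30% (3.09%) and CTTTC or CTTTT at the start in 4.94% (7.53%). The median SD over arrays kept its value of 0.16 when the arrays were normalised again and among genes above background.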
